A study of Mus musculus with 12 samples.

Results

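Sorted keratinocytes of the wound front were compared between mice deficient in RORγt and wild-type mice. The cells were A5-positive, that is, they carried integrin alpha5, the product of Itga5, which the submitters used to mark the migrating tongue, the sheet of keratinocytes that crawls into a wound. The comparison rests on 6 of the 12 libraries of the series, 3 RORγt-deficient and 3 wild-type, chosen by their labels. The other 6 libraries, from A5-negative cells that the submitters place at the wound edge, in the same genotypes, entered the model to estimate the spread and are described only where the genotype effect in the 2 fractions is set side by side. Mice were wounded 3 days before harvest, a ring of skin 0.25 mm wide around the wound was digested, and each pool held 2 or 3 mice of 1 group for 1 sequencing run. Living Epcam-positive, integrin alpha6-positive cells were sorted without CD45-positive, CD31-positive or CD117-positive cells, so every library stands for a pool and not for a single mouse. RORγt was lost through a knock-in of GFP. The labels state neither the age and sex of the mice nor whether the wild-type mice were littermates.

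RORγt is a transcription factor that lymphocytes need to become producers of IL-17, among them gamma delta T cells, Th17 cells and group 3 innate lymphoid cells of the skin. Its loss is therefore a loss in immune cells, which the sort removed. Keratinocytes answer IL-17 through a receptor built of IL-17RA and IL-17RC, which recruits the adaptor Act1 and raises NF-kB activity, C/EBP factors and the cofactor encoded by Nfkbiz. At a wound edge keratinocytes loosen their junctions, change their keratins and integrins and work at low oxygen, where the factor HIF1 alpha raises glucose uptake and glycolysis. The title of the series links IL-17 to this adaptation to low oxygen, and the comparison asks which genes of migrating cells differ when the IL-17-producing lymphocytes are missing.

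The labelled cells were checked first. Itga5 stood at 85.1, 101 and 97.2 CPM (counts scaled to library size with TMM factors, as are all levels unless said otherwise) in wild-type libraries 1, 2 and 3 and at 107, 122 and 137 CPM in RORγt-deficient libraries 1, 2 and 3. The groups did not overlap, but the change of 0.37 ± 0.13 (log2, ± standard error, SE, n = 3 libraries a group throughout) did not pass the test (edgeR quasi-likelihood F test, Benjamini-Hochberg adjusted p = 0.126). Itga6, at 600 to 1069 CPM, and Epcam, at 344 to 790 CPM, were high in all 6 libraries, and neither passed. Of the genes of the excluded cells, Ptprc (CD45) lay at 3.13 to 6.41 CPM and Kit (CD117) at 1.77 to 8.63 CPM. Pecam1 (CD31) lay at 0.639 to 1.83 CPM except in wild-type library 1, where it reached 17.0 CPM.

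Il17a and Il22 had 0 counts in all 6 libraries, for which 3 counts, the limit that a count of 0 allows, come to 0.0523 to 0.103 CPM of the total counts. Other lymphocyte genes were not all absent. Il17f had 7, 6 and 9 counts in wild-type and 7, 7 and 1 in RORγt-deficient libraries. Il23r had 50, 35 and 13 counts against 23, 82 and 28. Cd3e had at most 4 counts in a library and Trdc at most 2. Total counts of the 6 libraries ran from 29259516 to 57324268, and wild-type library 1 and RORγt-deficient library 1 were the deepest. On the first principal component of the 6 libraries, which held 53.7% of the variance, wild-type library 1 (-33.7) and RORγt-deficient library 2 (36.2) lay at opposite ends and the other 4 between -9.58 and 8.08.

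The marker lists of fibroblasts and of Schwann cells had sums that did not overlap between the groups. The summed level of 22 fibroblast markers, as CPM of the total counts, was 4169, 6566 and 9057 in the wild-type libraries and 16639, 10512 and 17679 in the RORγt-deficient ones. All 22 were detected, 21 had a change above 0 (beside 49.8% of all genes), and the median was 1.08. The 1 that rose (4.55%, beside 2.26% of all genes) was Pdgfra, the receptor of platelet-derived growth factor (1.08 ± 0.25). The 8 Schwann cell markers had sums of 150 to 262 CPM in wild-type and 323 to 449 CPM in RORγt-deficient libraries. Only 4 of the 8 passed the filter on low counts. Of these 3 had a change above 0 and 1 below, from -1.28 to 1.82. The 1 that rose (25%, beside 2.26% of all genes) was Pmp22 (1.15). The 13 keratinocyte markers summed to 63727 to 85975 CPM in wild-type and 50284 to 65573 CPM in RORγt-deficient libraries, and these ranges overlap. Krt14 and Krt5 made up most of each sum. Of the 13 markers 6 had a change above 0 and 7 below, with a median of -0.07. The 1 that fell (7.69%, beside 1.76% of all genes) was Krt14. In pooled cells of this kind, more cells of a type and more RNA per cell cannot be told apart.

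**Figure D1:**
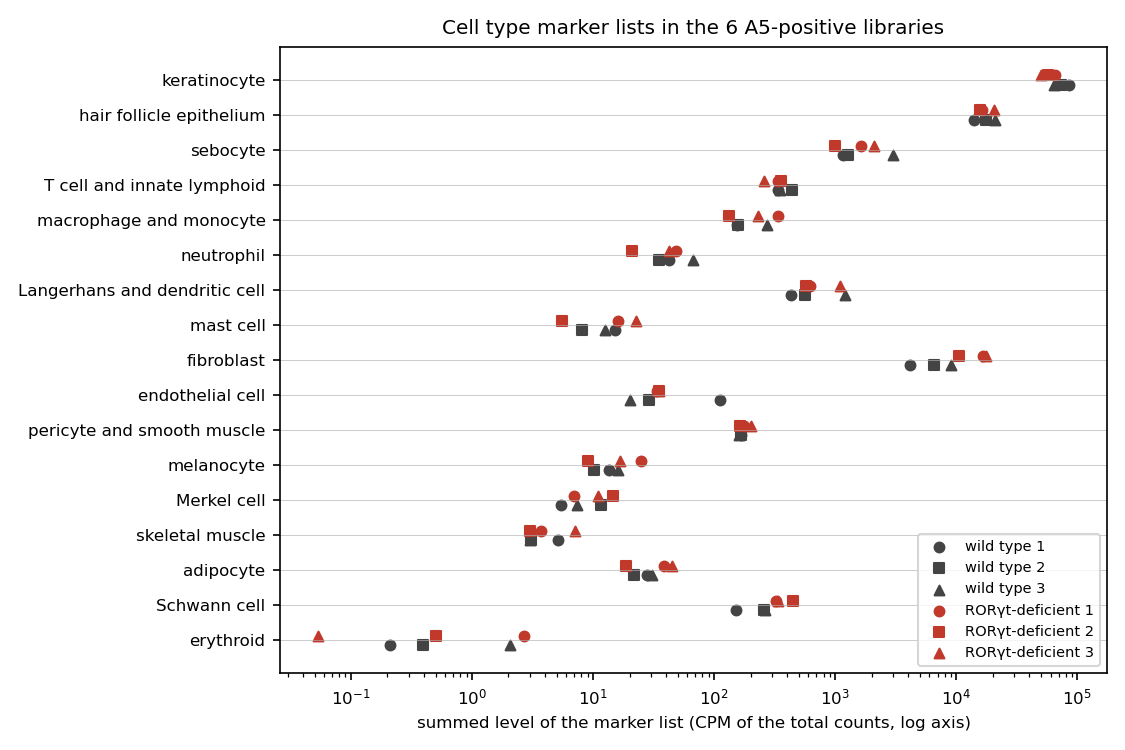
Summed level of each marker list (horizontal log axis, CPM of the total counts), 1 point per A5-positive library, wild type in grey and RORγt-deficient in red, with the library number given by the symbol. The fibroblast markers lie at 4169 to 9057 CPM in wild-type and at 10512 to 17679 CPM in RORγt-deficient libraries, and the endothelial markers are highest in wild-type library 1, at 111 CPM.

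Of 16677 genes tested, 670 changed between the genotypes in A5-positive cells (4.02%), 377 up (2.26%) and 293 down (1.76%). The model used the library number as a block, so that libraries of the same number were compared with each other. All 670 lay on 1 side in all 3 numbers, which a test blocked by number favours. Of all 16677 genes, 3712 were higher in all 3 numbers and 3936 lower. Of the 670, 522 had levels that did not overlap between the groups, 268 higher and 254 lower. Of all genes tested, 18.1% did not overlap, 9.04% higher and 9.01% lower. Most changes were modest, with a median of 0.74 among the genes that rose and -0.63 among those that fell, while 107 rose and 59 fell by more than 2-fold. The count depended on how the test was set up, and no gene named from here on passed every alternative except Gm3608. Without the block 1 gene passed, and with the mean level of the fibroblast markers as a covariate 1. That covariate differs between the genotypes itself, so it can also take up genotype differences that do not come from fibroblasts. Leaving out 1 of the 6 libraries gave between 6 (without wild-type library 1) and 705 (without wild-type library 3). The other counts were 23 without wild-type library 2 and 86, 14 and 12 without RORγt-deficient library 1, 2 or 3. Each of the 670 kept its direction under every alternative that tested it, but genes chosen for a small p would be likely to do so.

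**Figure D2:**
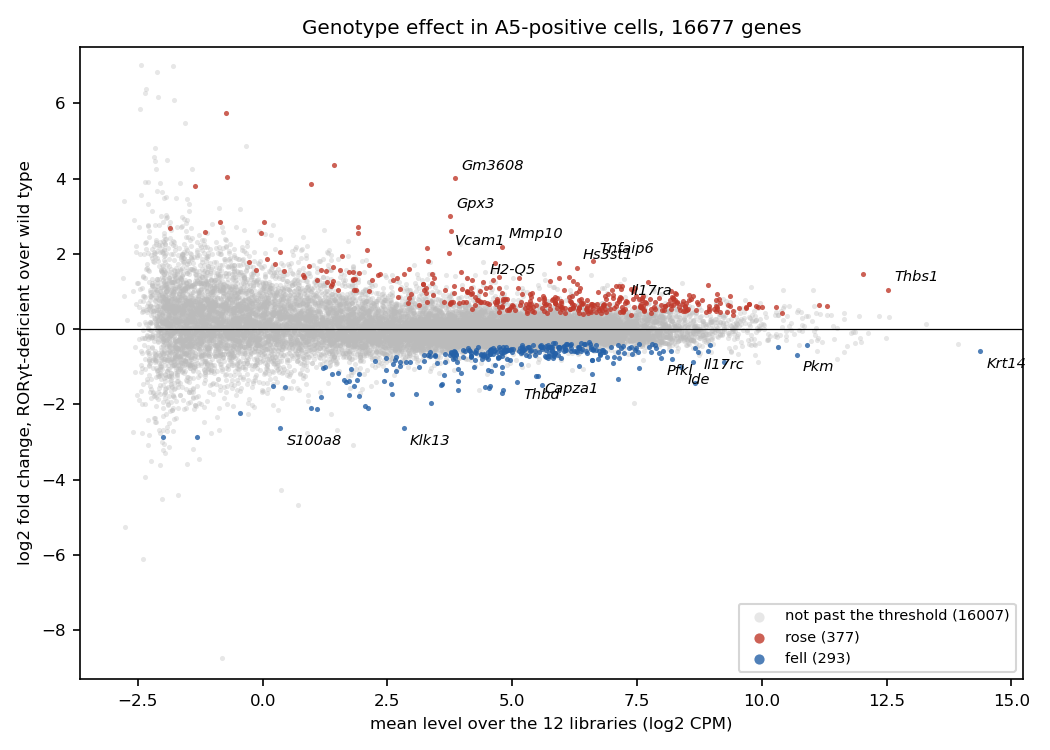
Log2 fold change, RORγt-deficient over wild type (vertical axis), against the mean level over the 12 libraries (horizontal axis, log2 CPM) for the 16677 genes tested. Red points are the 377 genes that rose, blue the 293 that fell, and grey the 16007 that did not pass the threshold. Gm3608, at 4.02, and Klk13, at -2.63, stand clear of genes of the same level.

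The genes that separated the genotypes most sharply were Gm3608, Klk13, Ide, H2-Q5 and Gm7665, which were named after their values were seen because they alone passed in all 6 fits that left out 1 library. Gm3608, a predicted gene at chr1:105455971-105458829 (GRCm38, as are all positions), stood at 1.65, 1.56 and 1.51 CPM in the wild-type libraries and at 24.5, 24.2 and 28.5 CPM in the RORγt-deficient ones. The groups lay far apart and each was even, and the change was 4.02 ± 0.15 (edgeR adjusted p = 3.34e-07). The same gene rose by 4.28 in A5-negative cells, where no other gene passed. Ide (chr19:37268743-37337852) encodes the insulin-degrading enzyme, a metalloprotease that cuts small peptides. It fell from 419, 391 and 563 CPM to 216, 214 and 246 CPM, a change of -1.004 ± 0.10 with very like levels in all 3 RORγt-deficient libraries.

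Klk13 (chr7:43712567-43727534) is a kallikrein-related serine protease of stratified epithelia. Its level went from 29.7, 14.5 and 16.4 CPM to 5.23, 2.41 and 2.22 CPM (-2.63 ± 0.28), and library 1 was the highest in both genotypes. H2-Q5, a class I gene of the major histocompatibility complex, rose from 7.05, 12.5 and 8.95 CPM to 20.2, 27.0 and 19.6 CPM (1.25 ± 0.13), and its neighbour H2-Q6 rose by 1.09 ± 0.17. These genes have near-identical relatives, so how reads were shared among them is uncertain. Thbd (chr2:148404466-148408188), which encodes thrombomodulin, a cell-surface inhibitor of clotting that keratinocytes carry, passed in 5 of those 6 fits. It fell from 70.2, 50.3 and 76.2 CPM to 29.2, 20.2 and 23.7 CPM, with every RORγt-deficient library below every wild-type library (-1.41 ± 0.16, edgeR adjusted p = 0.00987).

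**Figure D3:**
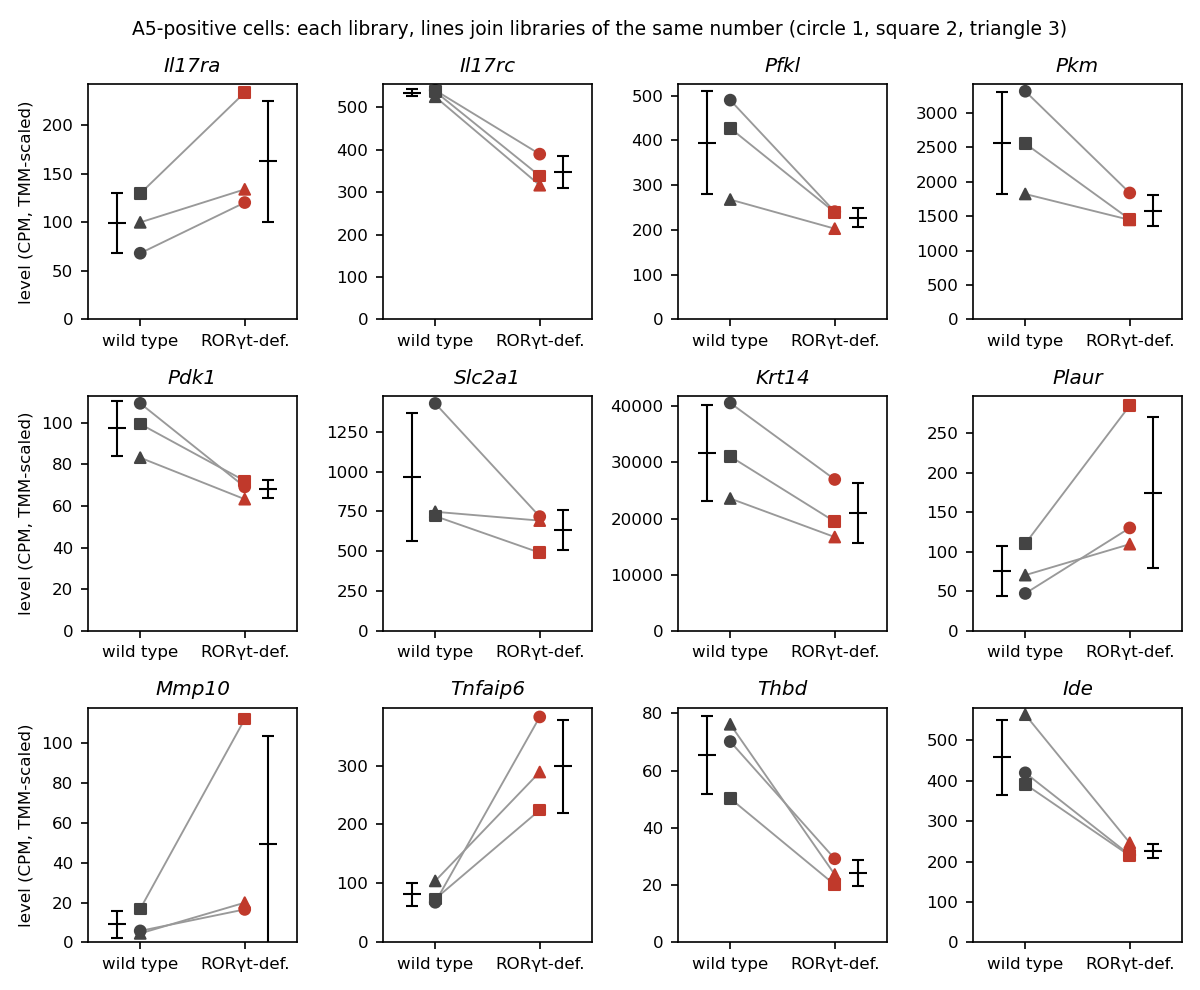
Level (vertical axes, CPM scaled by TMM factors) of 12 genes in each A5-positive library, with a line joining libraries of the same number and bars beside the points for the mean and SD of the 3 libraries of a group, ended at 0. All 3 lines fall for Il17rc, Pfkl, Pkm, Pdk1, Slc2a1, Krt14, Thbd and Ide and rise for Il17ra, Plaur, Mmp10 and Tnfaip6, although Slc2a1 did not pass the test.

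The 2 chains of the IL-17 receptor moved in opposite directions. Il17ra (chr6:120463247-120487559), the chain shared by several IL-17 family receptors, stood at 68.2, 130 and 99.9 CPM in wild-type and at 120, 234 and 134 CPM in RORγt-deficient libraries. Within each number it was higher in the RORγt-deficient library, while the groups overlapped, and it rose by 0.69 ± 0.14 (edgeR adjusted p = 0.0378). Il17rc (chr6:113471427-113483140), the chain that joins it to bind IL-17A and IL-17F, was even across the wild-type libraries, at 540, 537 and 524 CPM, and stood at 389, 338 and 316 CPM in the RORγt-deficient ones. It fell by 0.62 on the log2 scale, with an SE of 0.11 and no overlap (edgeR adjusted p = 0.0327).

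Of 31 receptor and proximal signalling genes tested, 6 rose (19.4%) and 1 fell, beside 2.26% and 1.76% of all genes, and the list's median change was 0.29, beside -0.0015 for all genes. Besides Il17ra these were Arid5a, an RNA-binding protein that stabilizes inflammatory transcripts (0.84 ± 0.18), Rela, a subunit of NF-kB (0.57 ± 0.13), Nfkbiz (0.59 ± 0.14), Cebpd (0.62 ± 0.15) and the chaperone gene Hsp90aa1 (0.50 ± 0.11). Arid5a stood at 106, 193 and 192 CPM in wild-type and at 251, 404 and 232 CPM in RORγt-deficient libraries. Library 1 was the lowest of the wild-type libraries for Arid5a, Rela and Nfkbiz, and the groups did not overlap for any of the 3. The adaptor gene Traf3ip2, which encodes Act1, had a change of 0.29 ± 0.12 and did not pass. The list's median was 0.18 without wild-type library 1 and 0.16 with the fibroblast covariate.

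Genes that IL-17 is known to raise in keratinocytes did not move as 1 group. Of 52 listed, 41 passed the filter on low counts, 5 rose (12.2%, beside 2.26% of all genes), 2 fell (4.88%, beside 1.76%) and 34 did not pass, with changes from -2.63 to 2.60. The median was 0.35, and 0.15 without wild-type library 1. Has1, a hyaluronan synthase, rose from 29.8, 60.9 and 84.1 CPM to 114, 111 and 157 CPM (1.21 ± 0.21). The cytokine gene Il6 rose from 21.3, 14.0 and 11.8 CPM to 34.0, 24.3 and 34.7 CPM (1.01 ± 0.19). Both lacked overlap between the groups. Nfkbiz, Cebpd and Plet1, a surface protein of follicle and wound keratinocytes (0.63 ± 0.15), were the others that rose.

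The 2 that fell were Tgm3 and S100a8. Tgm3, a transglutaminase that cross-links the cornified envelope, went from 14.3, 5.43 and 6.83 CPM to 2.15, 1.52 and 2.69 CPM (-2.09 ± 0.37). S100a8, a subunit of the antimicrobial protein calprotectin, was low in all libraries, at 3.75, 3.00 and 2.96 CPM in wild-type and 0.551, 0.274 and 0.758 CPM in RORγt-deficient ones (-2.63 ± 0.63). It is also a gene of neutrophils, whose 18 markers summed to 35.3 to 66.9 CPM of the total counts in wild-type and 20.8 to 48.7 CPM in RORγt-deficient libraries, with Elane at 0 in all 6. Of the 11 neutrophil markers tested 2 fell, S100a8 and Cxcr2 (18.2%, beside 1.76% of all genes). Another 7 had estimates above 0 and did not pass, such as Trem1 (0.51) and Csf3r (1.04). The median of the 11 was 0.51, from 0.01 without wild-type library 1 to 1.17 without wild-type library 2. The part of neutrophil RNA in the S100a8 result was not tested. Other well-known targets had changes that did not pass, among them Cxcl1 (0.69 ± 0.20), Lcn2 (-0.28 ± 0.24), Ccl20 (0.27) and S100a9 (-1.47 ± 0.59).

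Glycolytic genes were mostly lower in RORγt-deficient cells. Of 27 tested, 3 fell (11.1%, beside 1.76% of all genes) and none rose by edgeR, DESeq2 or voom. Estimates were under 0 for 21 (beside 50.2% of all genes), and the median was -0.37. Pfkl, the liver-type subunit of phosphofructokinase, stood at 490, 427 and 268 CPM in wild-type and 241, 239 and 203 CPM in RORγt-deficient libraries (-0.77 ± 0.16, edgeR adjusted p = 0.039). Its wild-type levels were spread widely, the RORγt-deficient ones closely, and the groups did not overlap. Pkm, which encodes pyruvate kinase, fell from 3314, 2554 and 1822 CPM to 1837, 1454 and 1445 CPM (-0.68 ± 0.16), with wild-type library 3 just under RORγt-deficient library 1.

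Pdk1, a mitochondrial kinase that inhibits pyruvate dehydrogenase, fell from 109, 99.3 and 83.2 CPM to 69.1, 72.0 and 63.2 CPM (-0.51 ± 0.11, no overlap). Eno1 (-0.62), Tpi1 (-0.64) and Gapdh (-0.60) had changes of like size that did not pass, with edgeR adjusted p-values of 0.0505, 0.0673 and 0.078. Slc2a1, the glucose transporter GLUT1, stood at 1427, 720 and 748 CPM in wild-type and 717, 491 and 692 CPM in RORγt-deficient libraries (-0.57 ± 0.18, edgeR adjusted p = 0.091). Number 3 had the smallest gap for Slc2a1. The list's median was -0.48, -0.42 and -0.11 within numbers 1, 2 and 3, -0.23 without wild-type library 1 and -0.08 with the fibroblast covariate, so the difference was smallest in number 3.

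The other genes of the low-oxygen response were divided in direction. Egln1, the oxygen sensor that marks HIF1 alpha for destruction, fell from 270, 239 and 189 CPM to 179, 158 and 135 CPM without overlap (-0.56 ± 0.13, edgeR adjusted p = 0.0419). Of 18 HIF subunit and oxygen sensor genes tested edgeR called 0 rises and this 1 fall (5.56%, beside 1.76% of all genes), 7 had an unadjusted p under 0.05, voom called the same numbers and DESeq2 3 rises and 2 falls. The list had 10 estimates under 0 and 8 above, with a median of -0.08 that was 0.04 without wild-type library 1. Arnt, the partner of HIF1 alpha, was lower without overlap and did not pass (-0.47 ± 0.12). Hif1a stood at 556, 519 and 374 CPM in wild-type and 374, 452 and 421 CPM in RORγt-deficient libraries, so the groups overlapped, and number 3 went the other way (-0.21 ± 0.14, edgeR adjusted p = 0.37).

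Of 48 hypoxia targets outside glycolysis, 2 rose, 1 fell (Egln1), 24 had a change above 0 and 24 below 0, and the median was 0.01. Those that rose were Ndrg1, a stress-response gene of differentiating epithelia (0.60 ± 0.13), and Rbpj, the DNA-binding factor of Notch signalling (0.57 ± 0.12). Their share of the list, 4.17%, was close to the 2.26% of all genes. Vegfa, the angiogenic growth factor, had a change of 0.19 ± 0.10 and Car9, a carbonic anhydrase, of -0.40 ± 0.25, and neither passed. Adm, the vasodilator adrenomedullin, had a change of 0.76 ± 0.20 that did not pass either.

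The promoters of the 4 genes of this response that fell are shown because HIF1 binds a short core motif near the start sites of many of its targets. Each is the 250 bases before the start site (RefSeq, GRCm38.p6), read on the gene's strand from 5′ to 3′, with matches to ACGTG or GCGTG on either strand in capitals. They lie at chr8:124949255-124949504 on the minus strand (Egln1), chr2:71872974-71873223 on the plus strand (Pdk1), chr10:78009808-78010057 on the minus strand (Pfkl) and chr9:59656326-59656575 on the plus strand (Pkm).
Egln1: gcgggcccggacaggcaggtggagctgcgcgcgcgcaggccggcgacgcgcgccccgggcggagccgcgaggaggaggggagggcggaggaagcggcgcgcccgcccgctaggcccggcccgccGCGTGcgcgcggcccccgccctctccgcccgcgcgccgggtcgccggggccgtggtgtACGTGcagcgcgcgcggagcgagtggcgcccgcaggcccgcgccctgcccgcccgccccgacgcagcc
Pdk1: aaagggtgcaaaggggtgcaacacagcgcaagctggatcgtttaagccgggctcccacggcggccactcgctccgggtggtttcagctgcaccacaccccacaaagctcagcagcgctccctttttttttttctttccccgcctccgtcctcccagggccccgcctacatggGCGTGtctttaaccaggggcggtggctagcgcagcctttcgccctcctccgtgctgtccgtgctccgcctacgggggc
Pfkl: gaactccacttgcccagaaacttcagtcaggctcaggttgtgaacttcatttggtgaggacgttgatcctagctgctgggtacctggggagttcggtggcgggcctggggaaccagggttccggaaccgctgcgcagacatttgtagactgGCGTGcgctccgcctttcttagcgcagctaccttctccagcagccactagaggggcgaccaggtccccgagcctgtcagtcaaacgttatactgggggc
Pkm: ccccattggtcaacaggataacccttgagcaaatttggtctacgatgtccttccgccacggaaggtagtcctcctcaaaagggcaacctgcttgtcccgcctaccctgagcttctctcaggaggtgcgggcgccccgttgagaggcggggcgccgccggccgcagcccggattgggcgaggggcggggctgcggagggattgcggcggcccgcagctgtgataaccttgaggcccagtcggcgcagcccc
Egln1 held 2 matches, 126 and 68 bases before the start, Pdk1 1 at 78 bases, Pfkl 1 at 99 bases, and Pkm none. The 2 motifs differ in their first letter, and a stretch reading CACGTG holds ACGTG on both strands. A match to either was found in 54.9% of 11593 promoters of tested genes, in 59.0% of those of genes that fell, in 56.2% of those that rose, in 76.9% of 26 glycolytic promoters, in 73.5% of 34 promoters of hypoxia targets outside glycolysis, whose median change was 0.01, and in 66.7% of 15 promoters of HIF subunits and oxygen sensors. Over all 32851 promoters of the table the share was 38.6%. A match says only that these letters are present.

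Genes of the respiratory chain and of ribosomes were slightly lower without any of them passing. Of 57 oxidative phosphorylation genes encoded in the nucleus, 56 had estimates under 0 (beside 50.2% of all genes), and their median was -0.23. None passed edgeR's adjusted p, 11 had an unadjusted p under 0.05, and DESeq2 and voom, both with the block, called 2 and 1. Uqcrc1, a core subunit of complex III, had the smallest p (-0.46 ± 0.12). Of 37 ribosomal protein genes 36 had estimates under 0 and the median was -0.19. None passed edgeR's adjusted p, DESeq2 or voom, and 2 had an unadjusted p under 0.05 in edgeR. The first median was -0.11 without RORγt-deficient library 2 and -0.13 without wild-type library 1, and the second lay between -0.30 and -0.09 when 1 library was left out, nearest 0 without wild-type library 1. Both were above 0 with the fibroblast covariate, at 0.14 and 0.22. The mitochondrially encoded genes went the other way, with 6 of 8 above 0 (beside 49.8% of all genes) and a median of 0.28.

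Genes that wounding induces in keratinocytes rose more often than genes at large. Of 53 tested, 9 rose (17.0%, beside 2.26% of all genes) and 1 fell (1.89%, beside 1.76%). Estimates were above 0 for 35 and below 0 for 18, with a median change of 0.28 (0.21 with the fibroblast covariate). The wound keratin genes of the list Krt6a (-0.86), Krt6b (-1.96) and Krt16, described further below, were lower without overlap and did not pass. Mmp10, the protease stromelysin 2 of migrating keratinocytes, stood at 5.78, 16.8 and 4.51 CPM in wild-type and at 16.5, 112 and 19.9 CPM in RORγt-deficient libraries. Library 2 was the highest in both genotypes, so that the groups overlapped although all 3 numbers rose by more than 2-fold (2.19 ± 0.27, edgeR adjusted p = 0.0123). Plaur, the receptor of urokinase, which starts plasmin formation at the cell front, rose from 47.4, 110 and 70.6 CPM to 130, 285 and 110 CPM (1.15 ± 0.22).

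Epgn, a ligand of the EGF receptor, rose from 81.7, 109 and 98.6 CPM to 167, 217 and 129 CPM without overlap (0.80 ± 0.15). The others that rose were Plat, the tissue plasminogen activator (0.59 ± 0.11), the AP-1 factor gene Fosl1 (0.79 ± 0.17), the hyaluronan synthase gene Has2 (0.87 ± 0.18), Itgb6, an integrin chain of migrating epithelium (0.80 ± 0.20), Sox11 (2.57 ± 0.57) and Fn1 (0.95 ± 0.22). Sox11, a transcription factor of embryonic epidermis and wound edges, was scarce, at 0.105 to 0.3602 CPM in wild-type and 1.08 to 1.15 CPM in RORγt-deficient libraries. In the wild-type libraries a count of 0 allows up to 0.0523 to 0.103 CPM of the total counts. Sox11 passed in 3 of 20 alternatives and in 0 of the 6 fits that left out 1 library. The 1 that fell was Stfa1, a stefin (-1.70 ± 0.39), one of a cluster of near-identical genes whose counts are uncertain. Of 50 actin, adhesion and motility genes 2 rose (4%, beside 2.26% of all genes), among them Tpm1, a tropomyosin (0.71 ± 0.14).

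Matrix genes had the highest median of the 21 pathway lists, 0.40 over 30 genes, of which 2 rose (6.67%, beside 2.26% of all genes) and 12 had higher levels without overlap (beside 9.04%). The median was 0.23 without RORγt-deficient library 3. Fn1, fibronectin, the ligand of the alpha5 integrin, stood at 53.2, 57.5 and 72.4 CPM in wild-type and at 168, 88.2 and 117 CPM in RORγt-deficient libraries, so that library 1 differed most. Thbs1, thrombospondin 1, was among the most abundant transcripts that rose, from 2392, 3874 and 3450 CPM to 5512, 10302 and 4999 CPM (1.05 ± 0.24). These genes are also made by fibroblasts, whose markers summed to 4169 to 9057 CPM of the total counts in wild-type and 10512 to 17679 CPM in RORγt-deficient libraries. With the mean of those markers as a covariate the median of the matrix list was -0.07. Because the markers differ between the genotypes, this does not test the part of fibroblast RNA.

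**Figure D4:**
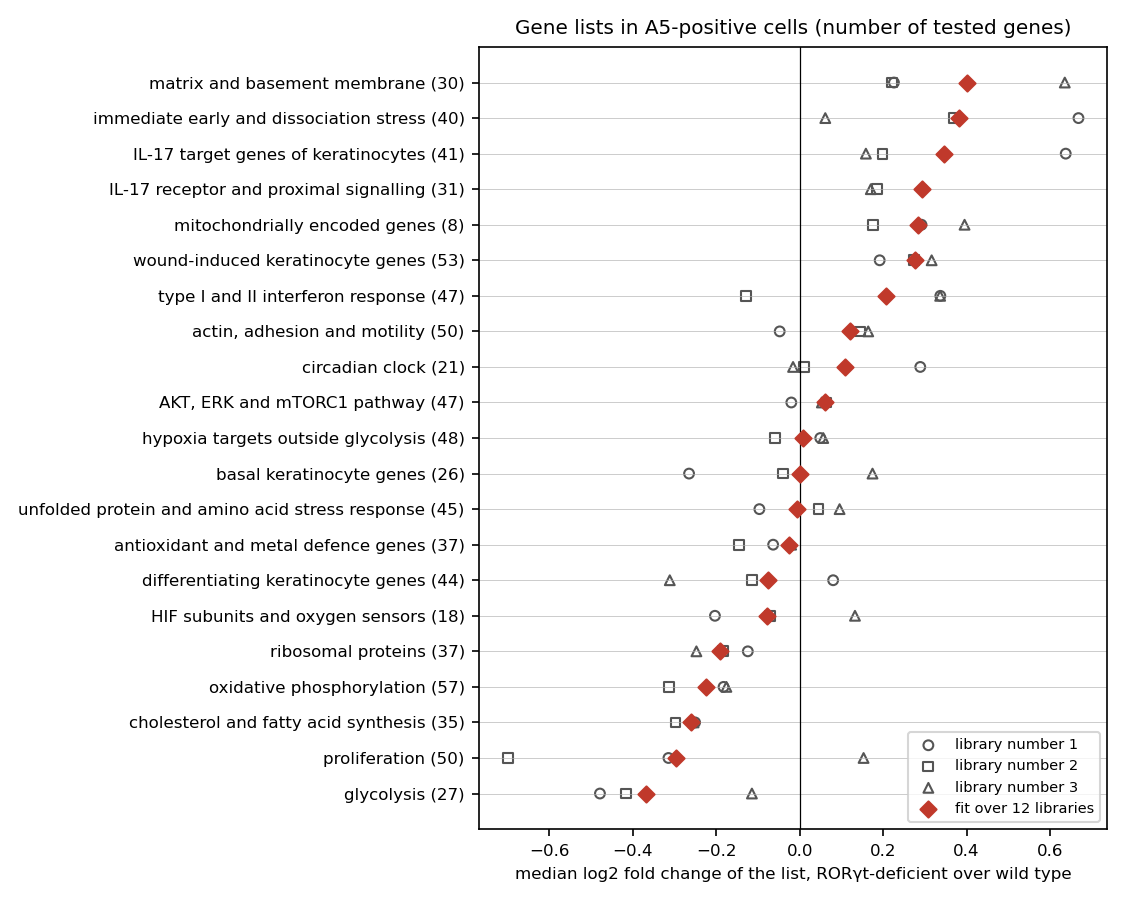
Median log2 fold change of each pathway list (horizontal axis, RORγt-deficient over wild type), with the number of tested genes in brackets. Red diamonds are medians from the model over 12 libraries and open symbols medians of the within-number ratios for library numbers 1, 2 and 3. Matrix genes lie highest, at 0.40, and glycolytic genes lowest, at -0.37, while proliferation genes lie at -0.31, -0.70 and 0.15 within the 3 numbers.

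The 11 keratin genes of the pathway lists were divided, with 8 estimates under 0 and 3 above (Krt2, Krt15 and Krt77), and edgeR called Krt14 alone. Krt14, the keratin of basal cells, was the most abundant of them, at 40577, 31061 and 23568 CPM in wild-type and 26959, 19458 and 16709 CPM in RORγt-deficient libraries. All 3 numbers fell by a like amount while the groups overlapped (-0.59 ± 0.13, edgeR adjusted p = 0.0395). Krt6a, a keratin that wounding induces, stood at 2566, 1779 and 1469 CPM against 1328, 724 and 1206 CPM and did not pass (-0.86 ± 0.30, edgeR adjusted p = 0.118). Krt15, a keratin of basal and follicle cells, had an estimate of 0.43 ± 0.17, and Krt2 one of 1.12 ± 0.33. Krt6b (-1.96 ± 0.60), Krt16 (-0.68 ± 0.22) and Krt1 (-0.79 ± 0.21) also had levels that did not overlap and did not pass.

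Among 44 genes of differentiating keratinocytes 3 fell (6.82%, beside 1.76% of all genes) and 1 rose (2.27%, beside 2.26%). The median was -0.08, and it was 0.07 without wild-type library 3 and 0.05 without the 4 libraries of number 3. Dsc1 and Dsg1b encode desmosomal cadherins of the upper epidermis. Dsc1 fell from 100, 127 and 222 CPM to 72.3, 77.5 and 105 CPM (-0.76 ± 0.12), and Dsg1b from 115, 124 and 149 CPM to 57.6, 86.0 and 93.7 CPM (-0.74 ± 0.18). Only Dsg1b of this pair lacked overlap. Tgm3, given above, was the third, and Alox12b, a lipoxygenase of the skin barrier, rose from a low level (1.01 ± 0.25).

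Gpx3, a secreted glutathione peroxidase, led the largest rises among genes without overlap whose mean log2 CPM over the 12 libraries reached 3. That mean takes in the libraries where a gene is high, so a gene scarce in wild-type cells can reach it. Gpx3 stood at 14.9, 2.85 and 1.08 CPM in wild-type and at 33.1, 24.3 and 69.3 CPM in RORγt-deficient libraries. The set was uneven within each group (3.01 ± 0.68, edgeR adjusted p = 0.0404). Vcam1, an adhesion molecule for leukocytes, was more even, at 13.4, 9.01 and 7.17 CPM against 41.0, 37.6 and 34.0 CPM (2.02 ± 0.36). Tnfaip6, which encodes the hyaluronan-binding protein TSG-6, rose from 68.1, 73.7 and 104 CPM to 382, 224 and 289 CPM (1.81 ± 0.27, edgeR adjusted p = 0.0175). Library 1 gave the widest gap for Tnfaip6, as it did for Serpina3n, a protease inhibitor of the acute phase (37.7, 50.6 and 75.8 CPM against 236, 125 and 191 CPM, 1.77 ± 0.32).

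The rest of these 12 were Krt24 (1.82), the complement gene C3 (1.77), Hs3st1, a heparan sulfate sulfotransferase (1.64), Gxylt2 (1.46), the glutamate transporter gene Slc1a1 (1.39), Efemp1, which encodes fibulin 3 (1.37), Calcb (1.36) and Dpep1, a dipeptidase (1.35). Fibroblasts also make several of them, such as C3, Serpina3n and Efemp1, and their changes in A5-negative cells were 0.37, -0.24 and 0.82. The part of fibroblast RNA in these rises was not tested. Under the fibroblast covariate none of the 65 genes that the naming rule took and that passed kept its call. The covariate cannot decide this, because the fibroblast marker sums themselves did not overlap between the genotypes.

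The largest falls were led by Tmprss11g, a membrane serine protease, at 17.6, 20.3 and 20.3 CPM in wild-type and 9.47, 4.32 and 2.51 CPM in RORγt-deficient libraries (-1.97 ± 0.44). Aox4, an aldehyde oxidase, fell from 9.33, 13 and 16.9 CPM to 3.67, 2.68 and 5.44 CPM (-1.72 ± 0.22, edgeR adjusted p = 0.0133). Capza1, the alpha 1 subunit of the protein that caps actin filaments, was even in wild-type libraries, at 66.1, 67.3 and 58.3 CPM, and stood at 20.1, 39.2 and 24.1 CPM in RORγt-deficient ones (-1.25 ± 0.17). For all 3 genes every RORγt-deficient library was under every wild-type library, as the naming rule required.

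The others were Fgfbp3, which binds fibroblast growth factors (-1.62), the threonine dehydrogenase gene Tdh (-1.57), the scavenger receptor gene Stab1 (-1.53), Cdhr1, a cadherin-related gene (-1.50), Teddm3 (-1.49), Pitpnm3 (-1.45), Thbd (-1.41), Lrat, which stores retinol as esters (-1.38), and Endou, an endoribonuclease of differentiating epithelium (-1.24). Stab1 is known from endothelial cells and macrophages. The 16 endothelial markers summed to 111, 28.9 and 20.2 CPM of the total counts in wild-type and 33.6 to 35.04 CPM in RORγt-deficient libraries. The 22 macrophage and monocyte markers summed to 153 to 273 CPM in wild-type and 133 to 336 CPM in RORγt-deficient libraries. Stab1 stood at 62.3, 41.0 and 34.0 CPM against 19.4, 10.4 and 18.4 CPM. The part of endothelial or macrophage RNA in its fall was not tested.

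Smaller sets of metabolic and stress genes moved as follows. Of 35 genes of cholesterol and fatty acid synthesis 3 fell (8.57%, beside 1.76% of all genes), none rose by edgeR's adjusted p or voom (3 by DESeq2), 28 had estimates under 0 (80%, beside 50.2%), and the median was -0.26. Mvk, mevalonate kinase, fell from 66.6, 55.0 and 89.0 CPM to 45.3, 38.9 and 43.4 CPM (-0.69 ± 0.13), and Lss (-0.70 ± 0.16) and Nsdhl (-0.59 ± 0.13), which act later in the same path, fell too. None of the 3 overlapped between the groups. The medians within numbers 1, 2 and 3 were -0.25, -0.30 and -0.25.

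Of 37 antioxidant and metal defence genes 2 rose (5.41%, beside 2.26% of all genes) and 1 fell (2.70%, beside 1.76%). Besides Gpx3, Txnrd1, thioredoxin reductase 1, rose from 140, 312 and 218 CPM to 315, 616 and 341 CPM (0.92 ± 0.17), while G6pdx, which makes NADPH in the pentose phosphate path, fell (-0.52 ± 0.12). Txnip, an inhibitor of thioredoxin and of glucose uptake, was named after its values were seen and fell from 140, 85.8 and 116 CPM to 78.7, 54.6 and 59.7 CPM without overlap (-0.82 ± 0.10). In the unfolded protein and amino acid stress response 4 of 45 rose (8.89%, beside 2.26%) and 1 fell (2.22%, beside 1.76%). Atf4, its central factor, rose from 244, 286 and 300 CPM to 391, 452 and 364 CPM (0.54 ± 0.11), and Chac1 (1.59 ± 0.37) and Mthfd2 (0.79 ± 0.18), which ATF4 is known to raise, and Dnajb9 (0.67 ± 0.14) rose as well. Sars, a seryl-tRNA synthetase gene, fell (-0.62 ± 0.13), and the list's median was -0.01.

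Immediate early and dissociation stress genes had the largest share that rose of any pathway list, 8 of 40 (20%, beside 2.26% of all genes), with 38 of 40 above 0 (beside 49.8%) and a median of 0.38, from 0.27 without wild-type library 1 to 0.55 without wild-type library 3. They were Dnaja1, Fosl1, Zfp36l1, Ier5, Mcl1, Ier3, Maff and Myc, with changes of 0.47 to 0.81. Myc stood at 306, 483 and 415 CPM in wild-type and at 553, 670 and 500 CPM in RORγt-deficient libraries. Digestion of tissue is known to raise genes of this list, and its median differed among the numbers, at 0.67, 0.37 and 0.06. Fos and Jun, known for rapid responses, had changes of 0.02 ± 0.15 and 0.22 ± 0.15 that did not pass.

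In the pathway of AKT, ERK and mTORC1, 2 of 47 genes rose, near the background of all genes (4.26% beside 2.26%). They were Dusp6, a phosphatase that ERK induces (0.47 ± 0.11), and Rheb, the activator of mTORC1 (0.59 ± 0.14). With the block, voom called 0 of the 47 and DESeq2 called 7 rises and 1 fall. Rheb was even in wild-type libraries, at 143, 139 and 144 CPM, and stood at 215, 255 and 178 CPM in RORγt-deficient ones. Of 47 interferon response genes 2 rose, Gbp6 (1.68 ± 0.33) and B2m, the light chain of class I molecules (0.44 ± 0.11), near the background of all genes (4.26% beside 2.26%). Of 21 circadian genes edgeR called 1 rise, the clock gene Arntl (0.66 ± 0.15), a share of 4.76% beside 2.26% of all genes. DESeq2 with the block called 4 rises.

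Genes of cell division were lower on the whole, but their direction was not the same in the 3 numbers. Of 50 tested none passed edgeR's adjusted p or voom, DESeq2 called 2 falls and 14 had an unadjusted edgeR p under 0.05. Estimates were under 0 for 47 (beside 50.2% of all genes), and the median was -0.30. The medians were -0.31 and -0.70 within numbers 1 and 2 and 0.15 within number 3, and leaving out RORγt-deficient library 2 gave -0.14 and leaving out RORγt-deficient library 3 gave -0.47. Mki67 stood at 97.5, 108 and 76.2 CPM in wild-type and 84.6, 62.1 and 93.2 CPM in RORγt-deficient libraries, which overlap (-0.25 ± 0.19).

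The genotype effect was then set beside that in A5-negative cells, which carry the same library numbers. There 1 gene passed, Gm3608 (0.006%), while 2522 had an unadjusted p under 0.05. Of the 670 genes that changed in A5-positive cells, 631 had a change of the same sign in A5-negative cells, 356 of the 377 that rose and 275 of the 293 that fell. That is 94.2%, beside 69.9% of all genes tested, and the libraries of the 2 fractions with the same number vary together, so the share is a description only. Their median changes there were 0.46 and -0.26. Both effects were estimated in 1 model with the numbers as a shared block.

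The test of the difference between the 2 effects called no gene with edgeR, while 910 had an unadjusted p under 0.05. DESeq2 with the block called 25. By the main test, then, no gene was shown to differ in its genotype effect between the fractions. The smallest p belonged to Igsf10, an immunoglobulin superfamily gene, whose level in A5-positive cells rose from 15.8, 13.1 and 17.6 CPM to 36.9, 28.0 and 37.4 CPM (1.14 ± 0.15), beside -0.39 in A5-negative cells (difference 1.52, edgeR adjusted p = 0.52). Gramd2, Enpp2 and Pacs1 followed, with differences of -0.95, 3.02 and -0.67. Il17rc differed between the fractions by -0.45 and Pdk1 by -0.59, with unadjusted edgeR p-values of 0.015 and 0.0024 that did not hold after adjustment.

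**Figure D5:**
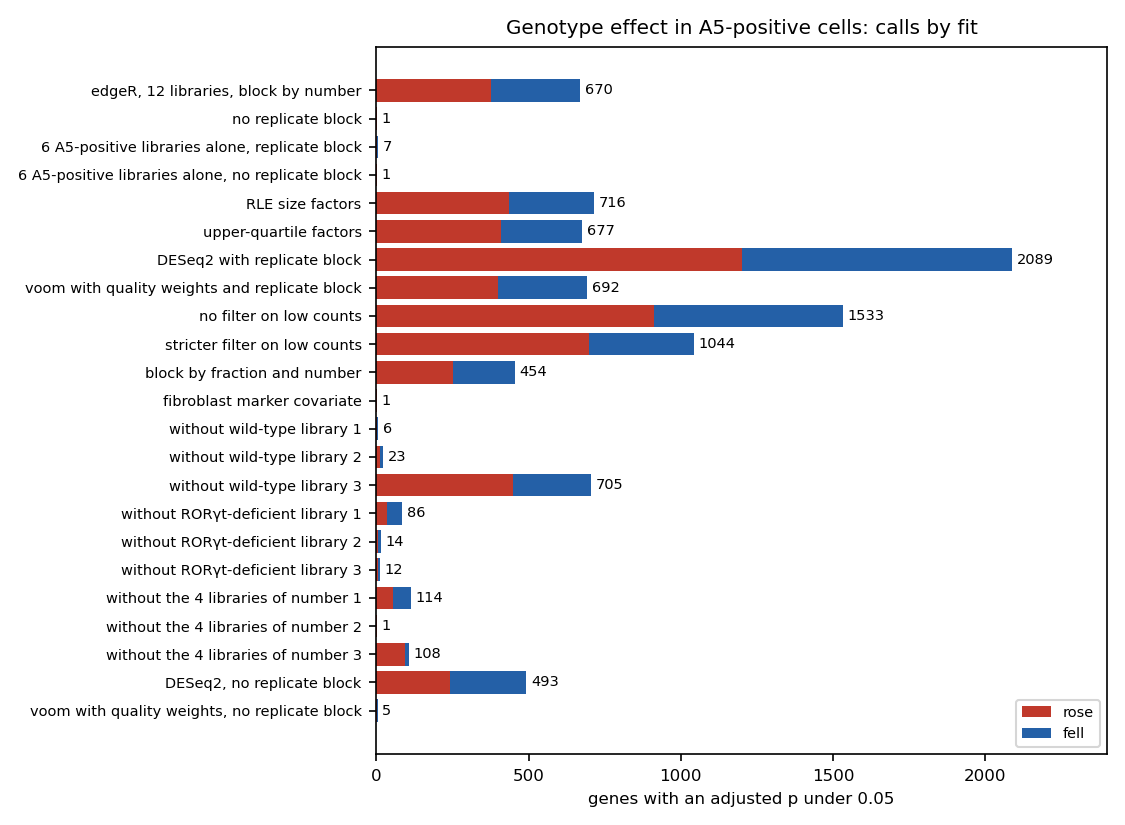
Number of genes with an adjusted p under 0.05 for the genotype effect in A5-positive cells (horizontal axis), rises in red and falls in blue, under the main model and each alternative. The bars run from 1 without the replicate block to 2089 with DESeq2 and the block, beside 670 in the main model.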

How the data were processed

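RNA of sorted keratinocytes was sequenced from SMART-Seq v4 and ThruPLEX libraries, per the labels' protocols. As deposited by the authors, the values are whole read counts for each gene symbol, without normalization. Per the submitters' processing notes, the tools were featureCounts, STAR, Trimmomatic 0.36 and bcl2fastq and the build mm10 (GRCm38). No annotation release or strand setting is named there, so reads of a gene and of an antisense partner cannot be told apart. Of 55341 rows, 26 whose symbols had become dates were left out (0.110% to 0.128% of a library's counts). The 55315 symbols kept all matched GENCODE M21, which gave positions and types.

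Counts were tested with edgeR 4.0.16 in R 4.3.3 (filterByExpr by group, TMM, quasi-likelihood F test) in a model of 4 groups over 12 libraries with the library number as a block, and adjusted by Benjamini-Hochberg over 16677 genes, threshold 0.05. The block is part of the definition of the comparison. Residuals of the 18 pairs of libraries with the same number correlated at 0.137 to 0.735 (median 0.447, 8730 genes), those of the 36 other pairs at -0.632 to 0.328, so the numbers pair the libraries. Within-number ratios used a pseudocount of 0.5 CPM. No pair of libraries of a group was alike to within counting error. Since each library is a pool, p-values do not reflect how far single mice differ. The model took the A5-positive and A5-negative libraries of a genotype and number as independent. Its spread therefore mixes differences between pools with differences between fractions, and the p-values measure neither alone. The 6 A5-positive libraries alone, with the block, gave 7 genes. Limits from a count of 0 cover counting error only, because PCR copies were not marked by molecular identifiers.

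The members, the 21 pathway lists and the 17 marker lists were chosen with earlier results of these data known. Genes named were a set of checks, of which 1 is not reported here, the 12 largest rises and 12 largest falls among called genes without overlap whose average log2 CPM reached 3 (predicted genes and pseudogenes passed over), the 3 members of smallest p in each list and the 4 of smallest p for the difference between fractions. Other members of lists were named after their values were seen. Lists are described by counts and medians, without a test. Alternatives were no block, the 6 libraries alone, RLE and upper-quartile factors, DESeq2 1.42.0, voom (limma 3.58.1), other filters, a block by fraction and number, a fibroblast covariate and leaving out libraries or numbers. DESeq2 and voom without the block were added after the data were seen. The fits were tested on simulated data.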

Additional observations from a re-analysis of the deposited data

How the results depend on the processing

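For the genotype effect the numbers pair the libraries, and without the replicate block 1 gene passed instead of 670 (5 with voom and 493 with DESeq2, both chosen after seeing the data). The 6 A5-positive libraries alone gave 7 with the replicate block and 1 without it. DESeq2 with the block gave 2089, no filter 1533, the stricter filter 1044 and the fibroblast covariate 1. Leaving out 1 of the 6 libraries gave 6 to 705, and leaving out the 4 libraries of number 1, 2 or 3 gave 114, 1 and 108. RLE factors (716), upper-quartile factors (677), voom with the block (692) and a block by fraction and number (454) stayed within 1.5 times. The cause of these differences was not tested, except that leaving out libraries leaves fewer samples. Of the 65 named genes that passed, DESeq2 with the block kept 64, voom with the block 62, and the fit without the block, the covariate and the fits without wild-type library 1 or number 2 none. Of the 670 genes, 207 passed in no fit that left out 1 of the 6 libraries.

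For the difference between fractions edgeR called 0 in the main fit, DESeq2 25 with the block and 8 without it (added after seeing the data), and edgeR 30 without a filter, while all other alternatives, voom included, gave 0. Changes that turned were those of genes that did not pass. With the fibroblast covariate they were Enpp2 (-0.14), Kit (-0.15), Pecam1 (0.74), Ptprc (-0.48), Rps2 (0.0052) and Rpsa (0.0100). Kit was at -0.027 in the 6 libraries alone with the replicate block, at -0.026 with the block by fraction and number, and at -0.41 without number 1, where Pecam1 was at 0.70. Leaving out single libraries moved Kit between -0.29 and 0.47, Pecam1 between -1.81 and 0.44 and Ptprc between -0.15 and 1.10. At this depth the scarce genes among them, at a few CPM, are read with little precision.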
